A study of Arabidopsis thaliana with 29 samples.

Results

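Transcripts of *Arabidopsis thaliana* seedlings labelled *atbmi1a,b* were compared with those of Col-0 seedlings. The comparison rests on 4 RNA-seq libraries of the 29 samples in the series, 2 of each genotype, chosen by their genotype label and paired by replicate number. Both genotypes were of the Col ecotype, untreated and 2 weeks old, harvested without roots and kept in 16 h light. The first library of each genotype is labelled as grown at 21 °C and the second at 22 °C. *atbmi1a,b* carries mutations in both *AtBMI1A* and *AtBMI1B* in the Col-0 background, and the sources used here do not name the alleles in this line. The study's methods describe biological duplicates for *atbmi1a,b* and do not name Col-0 there, and the labels do not say how many plants went into each library. Libraries of *clf-29* and *atring1a,b*, 2 each with the same 2 replicate numbers, age and tissue, shared the statistical fit. *clf-29* carries an insertion allele of *CLF*, a histone methyltransferase gene, and *atring1a,b* mutations in *AtRING1A* and *AtRING1B*.

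Polycomb group proteins keep developmental genes silent in tissues where they are not needed. Polycomb repressive complex 2 (PRC2) places trimethyl groups on lysine 27 of histone H3 (H3K27me3), and Polycomb repressive complex 1 (PRC1) ubiquitinates histone H2A. AtBMI1 and AtRING1 are the RING-finger subunits of PRC1. In *Arabidopsis*, loss of PRC1 function is known for seedlings that keep embryonic traits and express seed genes, which are normally active only while the embryo fills with protein and oil. The main families of such genes encode 2S albumins (*SESA*) and cruciferins, the storage proteins, and oleosins and caleosins, the coat proteins of oil bodies.

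In seedlings of *atbmi1a,b*, 67 of 21223 tested genes were higher than in Col-0 (0.316%) and 8 were lower (0.0377%), by edgeR's quasi-likelihood test with the replicate number as a block. A gene was called when its Benjamini-Hochberg adjusted p was under 0.05 and it differed by more than 2-fold. The genes that rose included 5 genes for seed storage proteins, 3 for oil body proteins, the Argonaute genes *AGO5* and *AGO9*, and the chromatin remodeller gene *PKR2*. The genes that fell included the floral MADS box gene *SEP4* and the DNA repair gene *XRCC4*. All 75 called genes moved the same way in both replicate numbers, with no overlap between the libraries of the genotypes. Over all tested genes, the libraries did not overlap for 12%, with *atbmi1a,b* above, and for 10.2%, with *atbmi1a,b* below.

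Levels are given as CPM, the counts of a gene scaled to a common library size (TMM), and differences as the fitted log2 fold change with its standard error. A pair of CPM values gives replicate 1 first and replicate 2 second, and coordinates are those of TAIR10.1. The 4 libraries held between 21394358 and 36205758 counts on genes, and 3 counts over both Col-0 libraries came to 0.0542 CPM. Libraries of 1 genotype differed widely: 30% of tested genes were more than 2-fold apart between the Col-0 libraries and 20% between the *atbmi1a,b* libraries. The clock gene *LHY*, whose transcript peaks around dawn, was at 417 CPM in replicate 1 and 8.44 CPM in replicate 2 of Col-0, and at 439 CPM in replicate 1 and 7.66 CPM in replicate 2 of *atbmi1a,b*. The replicate numbers thus stood far apart at this gene, in the same way in both genotypes. Across genes, which are not independent replicates, the difference between replicates in Col-0 correlated with that in *atbmi1a,b* at Pearson's r = 0.772. No call was left at an adjusted p under 0.05 once any 1 of the 4 libraries was left out, though all 75 genes kept their direction and an unadjusted p under 0.05. The counts of genes below therefore rest on all 4 libraries.

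**Figure D1:**
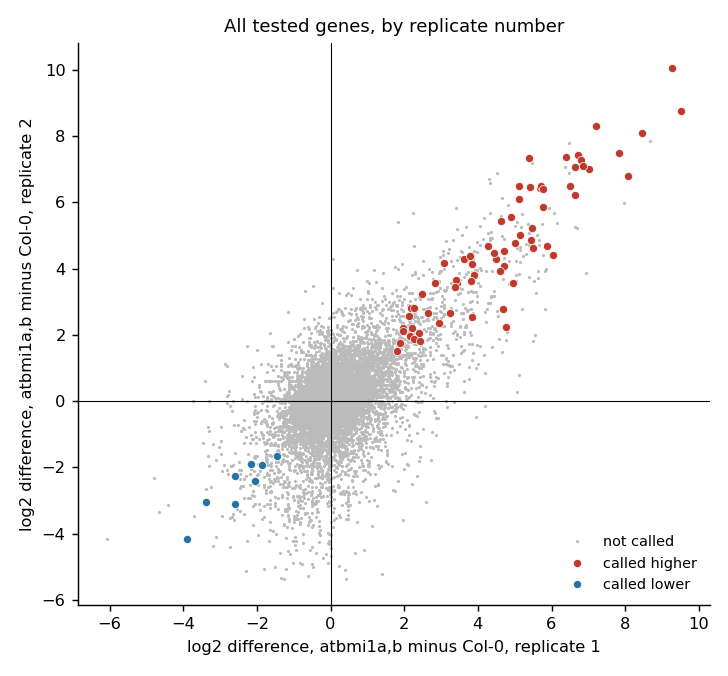
Log2 difference between *atbmi1a,b* and Col-0 in the first (x axis) and the second (y axis) replicate, 1 point per tested gene, with 67 genes called higher in red and 8 called lower in blue. All called genes lie in the quadrants where both replicates moved the same way.

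The targeted genes were read first. *AtBMI1B* (AT1G06770, chr1:2078880-2082097, named *DRIP1* in the reference) was at 12.02 and 16.6 CPM in Col-0 and at 4.29 and 4.86 CPM in *atbmi1a,b*. Both *atbmi1a,b* libraries lay below both Col-0 libraries, with a log2 fold change of -1.64 ± 0.28, which missed the threshold (edgeR adjusted p = 0.0986, and 0.000378 by DESeq2). *AtBMI1A* (AT2G30580, chr2:13025911-13030661, *DRIP2*) was at 14.3 and 11.1 CPM in Col-0 and at 13.6 and 22.5 CPM in the libraries labelled *atbmi1a,b*. The groups overlapped, and the log2 fold change was 0.52 ± 0.37. A count over the whole gene does not show whether a transcript is intact, so the label of *AtBMI1A* could not be checked in this way. A related RING/U-box gene, AT3G23060, was at 0.0288 and 0 CPM in Col-0 and at 0.719 and 0.552 CPM in *atbmi1a,b* (edgeR adjusted p = 0.163).

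Seed storage protein genes showed the highest list median. All 13 were tested, 5 were called higher and none lower, against 0.316% and 0.0377% of all tested genes. In all 13 both *atbmi1a,b* libraries exceeded both Col-0 libraries, against 12% of all tested genes. Storage genes near 0 in Col-0 passed the filter on low counts only through other libraries of the fit and could hardly be called lower. DESeq2 called 12 of the 13 higher, against 454 higher and 128 lower of the 26530 genes in its fit. Those totals also stand behind the DESeq2 counts of the lists below. Their median log2 fold change was 5.23, against -0.02 over all tested genes. *SESA4* was at 0.547 and 0 CPM in Col-0 and at 21.5 and 2.14 CPM in *atbmi1a,b*, with a log2 fold change of 5.55 ± 0.49 (edgeR adjusted p = 0.021). *SESA3* was at 0.921 and 0 CPM in Col-0 and at 19.0 and 1.69 CPM in *atbmi1a,b*. *SESA2* was at 0.978 and 0.0485 CPM in Col-0 and at 11.05 and 1.3996 CPM in *atbmi1a,b*. In each of these 2S albumin genes the first library of a genotype was the higher, and the second *atbmi1a,b* library was close to the first Col-0 library, within 4-fold or less. *SESA5* was at 0.115 and 0.0485 CPM in Col-0 and at 4.93 and 0.479 CPM in *atbmi1a,b*. AT1G03890, a gene of the cupin superfamily to which the cruciferins belong, was at 0.0575 and 0 CPM in Col-0, 2 counts in all, and at 3.14 and 0.405 CPM in *atbmi1a,b*. That is a ratio of 55.2, with a 95% counting interval of 15.0 to 461. *SESA2*, *SESA3* and *SESA4* are similar tandem copies on chromosome 4, and how their shared reads were split is not given in the sources used here.

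The most abundant storage genes in *atbmi1a,b* did not pass the threshold. The cruciferin gene *CRA1* was at 2.24 and 0.0485 CPM in Col-0 and at 45.3 and 12.01 CPM in *atbmi1a,b* (log2 fold change 5.41 ± 0.80, edgeR adjusted p = 0.0720). *CRU3*, another cruciferin gene, was at 1.73 and 0 CPM in Col-0 and at 35.9 and 6.48 CPM in *atbmi1a,b* (edgeR adjusted p = 0.0634). *PAP85*, which encodes a vicilin-like storage protein, was at 0.0288 and 1.21 CPM in Col-0 and at 24.1 and 80.9 CPM in *atbmi1a,b* (edgeR adjusted p = 0.257). In these 3 genes, too, the libraries of the genotypes did not overlap. *PAP85* differed from the 2S albumins in that its second *atbmi1a,b* library was the higher.

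Of 15 tested oil body and seed oil genes, 3 were called higher and none lower, with a median log2 fold change of 3.62, and DESeq2 called 8 higher. Those near 0 in Col-0, such as *OLEO1*, *OLEO2* and *CLO1*, passed the filter on low counts only through other libraries and could hardly be called lower. The oleosin gene *OLEO1* was at 0.288 and 0.0485 CPM in Col-0 and at 20.8 and 2.91 CPM in *atbmi1a,b* (log2 fold change 6.24 ± 0.43, edgeR adjusted p = 0.0145). *OLEO2*, which also encodes an oleosin, was at 0.115 and 0 CPM in Col-0 and at 12.03 and 1.3996 CPM in *atbmi1a,b* (6.79 ± 0.52, edgeR adjusted p = 0.0145). The caleosin gene *CLO1* was at 0.144 and 0 CPM in Col-0 and at 2.98 and 0.331 CPM in *atbmi1a,b*. Both *atbmi1a,b* libraries were above both Col-0 libraries for these 3 genes. Genes for fatty acid synthesis and oil assembly that leaves also use were among those not called. *FAD3*, a fatty acid desaturase gene, was at 96.7 and 159 CPM in Col-0 and at 115 and 143 CPM in *atbmi1a,b*. *BCCP2*, for a subunit of acetyl-CoA carboxylase, was at 38.7 and 20.7 CPM in Col-0 and at 54.7 and 49.9 CPM in *atbmi1a,b*. *DGAT1*, for the last step of oil assembly, was at 3.14 and 56.5 CPM in Col-0 and at 6.28 and 53.8 CPM in *atbmi1a,b*.

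Across the 8 called storage and oil body genes, the first *atbmi1a,b* library exceeded the second by 7.14-fold to 11.2-fold. For the 59 other genes called higher, the ratio of the higher to the lower *atbmi1a,b* library had a median of 1.21 and reached 4.01. Without the replicate block none of the 8 was called, with edgeR adjusted p between 0.534 and 1, against 19 of the other 59. With the block kept and the 4 libraries fitted alone, AT1G03890 (edgeR adjusted p = 0.0514), *SESA5* (0.0587) and *CLO1* (0.0729) were not called. The calls of these 8 genes therefore depend on pairing the libraries by replicate number, and 3 of them also on the libraries that share the fit.

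**Figure D2:**
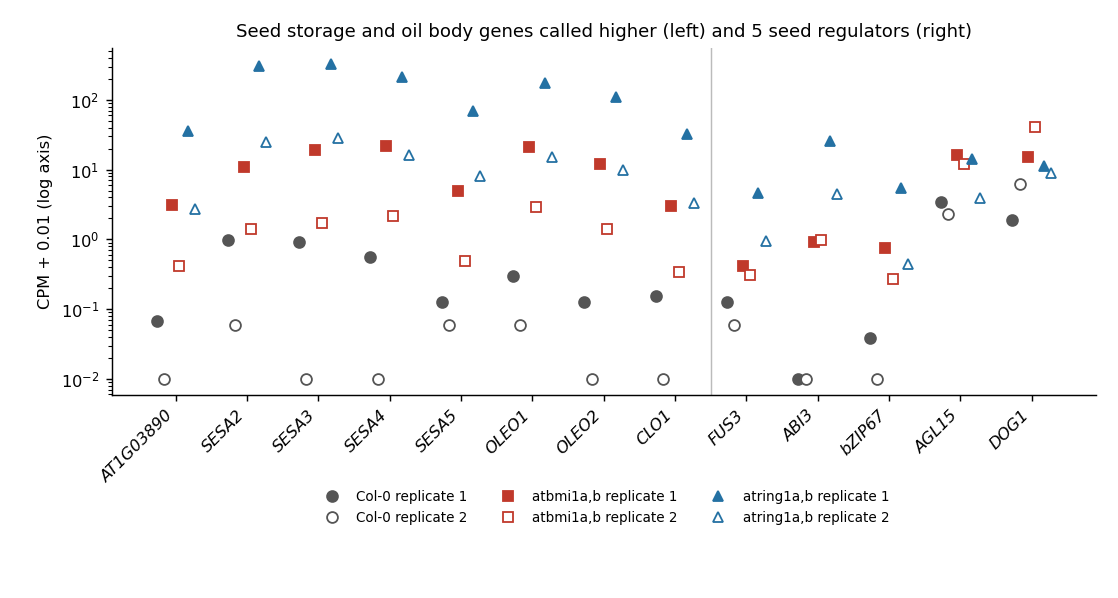
CPM plus 0.01 on a log axis in each library of Col-0 (circles), *atbmi1a,b* (squares) and *atring1a,b* (triangles), with the first replicate filled and the second open. The left part holds the 8 storage and oil body genes called higher and the right part 5 regulators of seed maturation; at 0.01 a gene had no count.

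The promoters of these 8 genes share the RY element, the binding motif of the B3 transcription factors that switch on seed maturation genes. The motif CATGCA was searched on both strands in the 250 bases before the annotated gene start (RefSeq annotation, TAIR10.1). It was present in 8 of the 8 promoters, in 3 of the other 59 genes called higher (5.08%, 95% Wilson interval 1.74% to 13.9%) and in 7.77% of all 21201 tested nuclear genes. Storage and oil genes hold this motif whether they were called or not: 11 of the 13 storage genes and 10 of the 15 oil genes had it. The G-box CACGTG, bound by bZIP factors, was in 5 of the 8 promoters, in 5 of the other 59 (8.47%) and in 7.4% of all. A match is a description of the sequence and not evidence of binding. A pair of albumin promoters and 1 oleosin promoter are printed to show the density of these motifs, each as the 250 bases upstream in TAIR10.1, 5′ to 3′ on the gene's strand, with the CATGCA (either strand) and CACGTG letters in capitals; overlapping matches run together. They lie at *SESA3* chr4:13611546-13611795 on the + strand, *SESA4* chr4:13613346-13613595 on the + strand and *OLEO1* chr4:12900180-12900429 on the + strand.
*SESA3*: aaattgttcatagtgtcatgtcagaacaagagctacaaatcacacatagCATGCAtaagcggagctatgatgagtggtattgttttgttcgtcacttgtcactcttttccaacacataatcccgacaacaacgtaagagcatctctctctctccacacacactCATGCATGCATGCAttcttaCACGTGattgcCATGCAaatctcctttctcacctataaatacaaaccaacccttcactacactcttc
*SESA4*: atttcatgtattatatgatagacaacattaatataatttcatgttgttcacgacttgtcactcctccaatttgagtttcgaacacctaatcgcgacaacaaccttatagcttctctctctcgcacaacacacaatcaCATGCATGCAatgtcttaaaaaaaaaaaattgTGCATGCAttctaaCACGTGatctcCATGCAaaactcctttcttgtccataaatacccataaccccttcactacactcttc
*OLEO1*: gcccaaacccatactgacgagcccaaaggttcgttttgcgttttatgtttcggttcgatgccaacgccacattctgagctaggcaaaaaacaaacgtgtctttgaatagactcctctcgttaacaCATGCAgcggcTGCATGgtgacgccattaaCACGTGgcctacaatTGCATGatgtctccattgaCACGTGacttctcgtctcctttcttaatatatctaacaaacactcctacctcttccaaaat
Counting overlapping matches on both strands, *SESA3* held 7 matches to CATGCA and 1 to CACGTG, *SESA4* held 6 and 1, and *OLEO1* held 3 and 2. In each of these promoters a G-box stood close to an RY element.

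Of the 13 listed regulators of seed maturation, 10 passed the filter on low counts and none was called. At an unadjusted p under 0.05 and more than 2-fold, 5 of the 10 were higher and 0 lower, against 4.32% and 1.9% of all tested genes. DESeq2 called *ABI3*, *AGL15* and *DOG1* higher and 0 lower. Of the 10, 2 had no count in Col-0. Genes at or near 0 in Col-0 passed the filter only through other libraries of the fit and could hardly be called lower. The lack of lower genes is therefore partly set by the filter. *ABI3*, a B3 factor of late embryogenesis, had no count in either Col-0 library and was at 0.905 and 0.958 CPM in *atbmi1a,b*, at least 17.1-fold higher against a floor of 3 counts over both Col-0 libraries (edgeR adjusted p = 0.247). *FUS3*, another B3 factor, was at 0.115 and 0.0485 CPM in Col-0 and at 0.399 and 0.295 CPM in *atbmi1a,b*. *LEC2*, the third B3 regulator, was at 0.0288 and 0 CPM in Col-0 and at 0.0533 and 0.0368 CPM in *atbmi1a,b* and was not tested. These B3 genes ranged from near the floor to just under 1 CPM in *atbmi1a,b*. *LEC1*, an embryonic NF-Y subunit gene, was at 0.0288 and 0 CPM in Col-0 and at 0.213 and 0.0737 CPM in *atbmi1a,b* and was not tested either. Its relative *L1L* was at 0.432 and 0.243 CPM in Col-0 and at 1.17 and 0.368 CPM in *atbmi1a,b*, with overlapping libraries. The heat shock factor gene *HSFA9* had no count in any of the 4 libraries.

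*DOG1* and *AGL15* were the better expressed of the regulators that stood apart. *DOG1*, a gene for seed dormancy, was at 1.90 and 6.11 CPM in Col-0 and at 15.4 and 40.4 CPM in *atbmi1a,b* (log2 fold change 2.83 ± 0.52, edgeR adjusted p = 0.117). *AGL15*, a MADS box gene of the embryo, was at 3.45 and 2.33 CPM in Col-0 and at 16.1 and 12.1 CPM in *atbmi1a,b* (2.32 ± 0.43, edgeR adjusted p = 0.117). In both genes the lowest *atbmi1a,b* library was more than 2-fold above the highest Col-0 library. *bZIP67*, for a bZIP factor of the maturing embryo, was at 0.0288 and 0 CPM in Col-0 and at 0.746 and 0.258 CPM in *atbmi1a,b* (edgeR adjusted p = 0.349). Of the other bZIP genes, *ABI5* was at 0.575 and 13.8 CPM in Col-0 and at 0.426 and 7.04 CPM in *atbmi1a,b*, and the genotypes overlapped. *EEL* was at 5.24 and 10.2 CPM in Col-0 and at 12.8 and 11.4 CPM in *atbmi1a,b*, without overlap and with an edgeR adjusted p of 1. *WRI1*, a regulator of oil synthesis that leaves express at a low level, was at 11.8 and 12.6 CPM in Col-0 and at 10.996 and 17.5 CPM in *atbmi1a,b*. *ABI4* had no count in Col-0 and 2 counts in *atbmi1a,b*, under the floor.

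Genes for late embryogenesis abundant proteins, which protect the drying seed, were not called in either direction among the 19 tested of 24 listed. At the unadjusted p, 7 were higher and 0 lower, DESeq2 called 3 higher, and the list median was 2.35. Here, too, a gene without a Col-0 count, such as *M17*, passed the filter only through other libraries and could not be called lower. *M17* had no count in Col-0 and was at 8.36 and 0.921 CPM in *atbmi1a,b*, at least 96.7-fold higher (edgeR adjusted p = 0.254). *RAB18*, a dehydrin gene that drought and abscisic acid also induce in leaves, was at 4.46 and 29.4 CPM in Col-0 and at 4.63 and 32.9 CPM in *atbmi1a,b*. *RAB28* was at 1.84 and 0.922 CPM in Col-0 and at 2.45 and 1.3996 CPM in *atbmi1a,b*. At *RAB18* and *RAB28* the libraries of the genotypes overlapped.

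Among 8 repressors of the seed programme, only *PKR2* was called. *PKR2* (AT4G31900, chr4:15431350-15438678), which encodes a CHD3-type chromatin remodeller related to PICKLE, was at 0.173 and 0.0485 CPM in Col-0 and at 35.5 and 36.9 CPM in *atbmi1a,b* (log2 fold change 8.30 ± 0.53, edgeR adjusted p = 0.0145). Its level was nearly equal in both *atbmi1a,b* libraries, and it was called without the replicate block as well (edgeR adjusted p = 0.0265). *PKL*, for PICKLE itself, was at 129 and 124 CPM in Col-0 and at 119 and 122 CPM in *atbmi1a,b*. The histone deacetylase gene *HDA19* was at 143 and 159 CPM in Col-0 and at 142 and 138 CPM in *atbmi1a,b*. *VAL1*, for a B3 protein that represses seed genes through the RY element, was at 61.1 and 59.2 CPM in Col-0 and at 89.1 and 106 CPM in *atbmi1a,b*, with a log2 fold change of 0.70 ± 0.20 (edgeR adjusted p = 0.338).

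The Polycomb genes themselves were not called among 21 tested of 23 listed, with a median of 0.03. At the unadjusted p, 5 were higher and 1 lower, and DESeq2 called 4 higher and 1 lower. *AtRING1A* was at 14.2 and 18.4 CPM in Col-0 and at 30.2 and 37.2 CPM in *atbmi1a,b* (1.05 ± 0.24, edgeR adjusted p = 0.202). *AtRING1B* was at 8.00 and 15.5 CPM in Col-0 and at 26.3 and 35.3 CPM in *atbmi1a,b* (1.42 ± 0.45, edgeR adjusted p = 0.41). The partner subunits of PRC1 were thus above both Col-0 libraries without passing the edgeR test. DESeq2 called *AtRING1A* (adjusted p = 0.00321) and not *AtRING1B* (0.125). *VIN3*, a PRC2-associated gene of vernalization, was at 0.0288 and 0.0971 CPM in Col-0 and at 1.89 and 8.40 CPM in *atbmi1a,b* (6.16 ± 0.87, edgeR adjusted p = 0.0932, and 3.0e-06 by DESeq2). *AtRING1A*, *AtRING1B* and *VIN3* were named after their values were seen. The better expressed members stayed near their Col-0 levels: *EMF2*, a PRC2 subunit gene, was at 60.0 and 45.8 CPM in Col-0 and at 60.7 and 48.8 CPM in *atbmi1a,b*. *SWN*, for a PRC2 methyltransferase, was at 47.8 and 70.8 CPM in Col-0 and at 56.4 and 73.4 CPM in *atbmi1a,b*. *VEL1*, a relative of *VIN3*, was at 90.8 and 102 CPM in Col-0 and at 96.7 and 118 CPM in *atbmi1a,b*.

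Of 14 tested floral MADS box and identity genes, well-known Polycomb targets, none was called higher and 1 was called lower, and the median was -0.04. At the unadjusted p, 0 were higher and 2 lower, and DESeq2 called 0 higher and 1 lower. *SEP4*, which acts in floral organ and meristem identity, was at 23.7 and 13.6 CPM in Col-0 and at 6.52 and 3.57 CPM in *atbmi1a,b* (log2 fold change -1.89 ± 0.23, edgeR adjusted p = 0.0485). Its 2 replicates gave log2 differences of -1.85 and -1.91. *LFY*, a floral meristem regulator, was at 0.748 and 0.679 CPM in Col-0 and at 1.36 and 1.25 CPM in *atbmi1a,b*. *FUL* was at 1.81 and 1.65 CPM in Col-0 and at 2.34 and 2.98 CPM in *atbmi1a,b*. *SHP1*, a fruit gene, was at 1.15 and 1.26 CPM in Col-0 and at 0.453 and 0.958 CPM in *atbmi1a,b*. *LFY*, *FUL* and *SHP1* lay between 0.453 and 2.98 CPM in all 4 libraries and did not pass the test.

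Of 18 tested flowering time genes, *MAF4* was called higher and none lower. *MAF4*, a relative of the flowering repressor FLC, was at 3.77 and 6.21 CPM in Col-0 and at 20.5 and 22.0 CPM in *atbmi1a,b* (2.12 ± 0.25, edgeR adjusted p = 0.0459, and 0.107 without the replicate block). *SVP*, another repressor of flowering, was at 87.5 and 151 CPM in Col-0 and at 85.4 and 152 CPM in *atbmi1a,b*. The median of this list was 0.04.

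**Figure D3:**
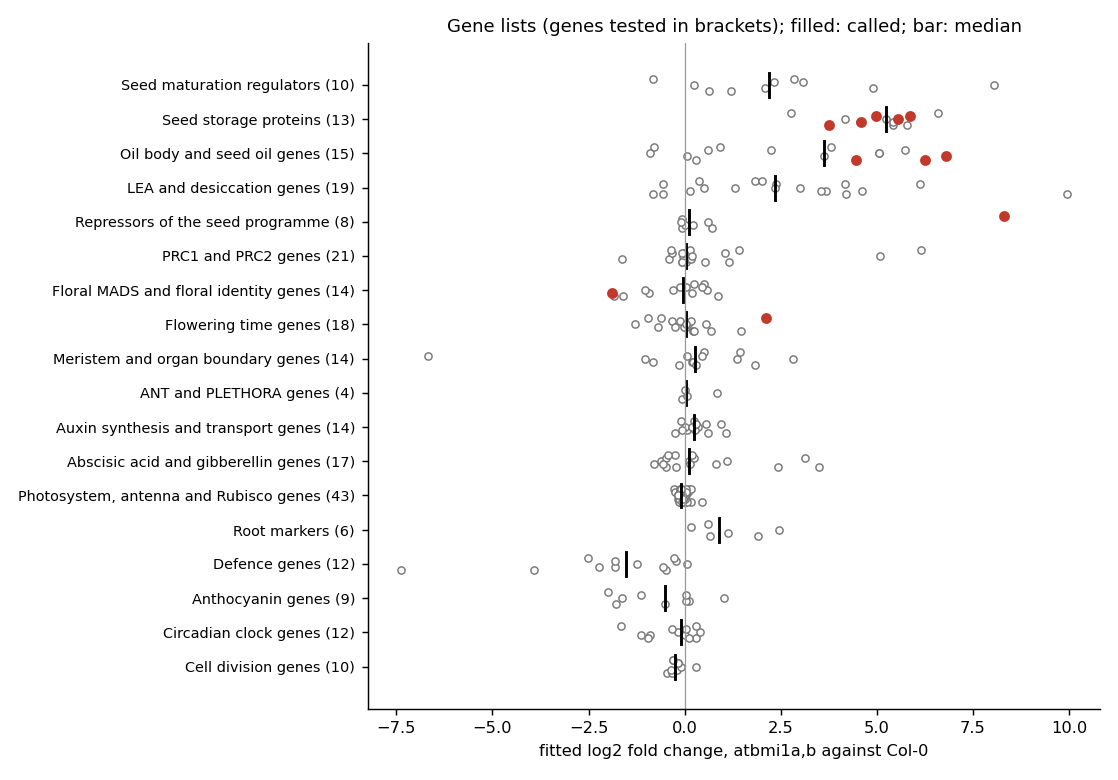
Fitted log2 fold change of *atbmi1a,b* against Col-0 for each tested gene of the 18 lists, with called genes filled, other genes open and a bar at the list median. The storage protein list has the highest median, 5.23, and the photosystem list, at -0.09, the narrowest range.

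The other 10 lists held no called gene. Over them, 3 meristem genes and 2 abscisic acid and gibberellin genes were higher at the unadjusted p and 1 meristem gene, 1 clock gene and 3 defence genes lower, and DESeq2 called 1 meristem gene higher and 2 defence genes lower. Of 14 tested meristem and organ boundary genes the median was 0.26, of 4 ANT and PLETHORA genes 0.03, of 14 auxin genes 0.25 and of 17 abscisic acid and gibberellin genes 0.11. *KNAT1*, a meristem homeobox gene, was at 13.2 and 7.09 CPM in Col-0 and at 12.9 and 9.54 CPM in *atbmi1a,b*. *ANT*, for an AP2 factor of organ growth, was at 68.0 and 21.0 CPM in Col-0 and at 52.7 and 25.7 CPM in *atbmi1a,b*. For both genes, the first library was the higher in each genotype. The auxin efflux carrier gene *PIN3* was at 176 and 260 CPM in Col-0 and at 245 and 279 CPM in *atbmi1a,b*. *AAO3*, for the last step of abscisic acid synthesis, was at 30.6 and 41.1 CPM in Col-0 and at 30.3 and 29.1 CPM in *atbmi1a,b*. The photosystem, antenna and Rubisco genes, 43 of 43 tested, had a median of -0.09 and a range of -0.29 to 0.46. Their most abundant member, the light-harvesting gene *LHCB1.3*, was at 3250 and 5042 CPM in Col-0 and at 3046 and 4870 CPM in *atbmi1a,b*. The 12 circadian clock genes had a median of -0.09, the 10 cell division genes -0.26 and the 9 tested anthocyanin genes -0.51. *KNOLLE*, for a protein of the cell plate, was at 102 and 40.9 CPM in Col-0 and at 72.5 and 35.7 CPM in *atbmi1a,b*. *CHS*, for the entry step of flavonoid synthesis, was at 350 and 8.59 CPM in Col-0 and at 223 and 8.43 CPM in *atbmi1a,b*.

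Defence genes had the lowest list median, -1.52 over 12 genes, with none called. *PR2*, a pathogenesis-related gene, was at 10.6 and 109 CPM in Col-0 and at 4.39 and 8.32 CPM in *atbmi1a,b* (-2.22 ± 0.72, edgeR adjusted p = 0.43). The second Col-0 library alone was high for this gene. *WRKY70* was at 23.1 and 56.2 CPM in Col-0 and at 35.1 and 40.7 CPM in *atbmi1a,b*. Summed over the list, the defence genes came to 169 and 435 CPM in Col-0 and to 160 and 113 CPM in *atbmi1a,b*.

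The labels give seedlings without roots. Of 16 root markers, 10 were under 1 CPM in all 4 libraries, 2 of them (*RHD6* and *BRN2*) at 0, and 6 were tested with none called. *PYK10*, a root glucosidase gene that shoots of seedlings also express, was at 355 and 598 CPM in Col-0 and at 510 and 942 CPM in *atbmi1a,b*. *CASP1*, of the root endodermis, was at 0.345 and 0.679 CPM in Col-0 and at 0.612 and 3.65 CPM in *atbmi1a,b*. The sum of the root markers without *PYK10* was 2.19 and 5.58 CPM in Col-0 and 5.91 and 12.6 CPM in *atbmi1a,b*. It was thus higher in *atbmi1a,b* within each replicate, and its part in the results was not tested. In whole shoots, more cells expressing a gene and more transcript per cell cannot be told apart.

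Over all genes, the largest rises were of genes near 0 in Col-0, as a rise of that size needs a low Col-0 level. Of the 67, 4 had no count in Col-0, 6 had 1 to 3 counts and 49 had a mean under 1 CPM. Of all 21223 tested genes, 111 had no count in Col-0, and 2658 of the 21201 nuclear ones had a mean under 1 CPM. Genes without a Col-0 count passed the filter only through other libraries of the fit, so their number is no separate result. AT1G74140 (chr1:27876905-27879780), annotated as a rhomboid-related intramembrane protease, was at 0.0575 and 0 CPM in Col-0, 2 counts in all, and at 78.1 and 72.3 CPM in *atbmi1a,b*. The ratio was 2095, with a counting interval of 580 to 17302 (edgeR adjusted p = 0.0138). AT1G03106 (chr1:748101-749034), an uncharacterized gene, was at 0.0288 and 0.0971 CPM in Col-0 and at 71.3 and 71.8 CPM in *atbmi1a,b*. Both genes were at nearly equal levels in the *atbmi1a,b* libraries. AT2G11410, annotated as a pseudogene, had no count in Col-0 and was at 23.9 and 18.6 CPM in *atbmi1a,b*, at least 399-fold higher. AT1G60570, for a kelch repeat protein, was at 15.4 and 12.3 CPM in *atbmi1a,b*, at least 260-fold higher than 0 counts in Col-0. The transcribed pseudogene *PSEUDOSRKA* (AT4G21370) was at 18.3 and 7.48 CPM in *atbmi1a,b*, at least 254-fold higher, and the uncharacterized AT3G25080 was at 7.62 and 10.6 CPM, at least 164-fold higher.

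The next genes by size had a few counts in Col-0. AT1G49330, for a hydroxyproline-rich glycoprotein, was at 0.0288 and 0 CPM in Col-0 and at 10.3 and 11.7 CPM in *atbmi1a,b*, a ratio of 602 with a counting interval of 108 to 23827. AT4G18900, for a WD40 repeat protein, was at 0.0863 and 0 CPM in Col-0 and at 17.7 and 9.24 CPM in *atbmi1a,b*, a ratio of 262 with an interval of 89.2 to 1271. AT1G65090, annotated as a nucleolin, was at 0.144 and 0 CPM in Col-0 and at 21.2 and 9.13 CPM in *atbmi1a,b*. AT2G41470, annotated as an agamous-like MADS box gene, was at 0.0863 and 0.146 CPM in Col-0 and at 19.8 and 27.7 CPM in *atbmi1a,b* (7.73 ± 0.59). AT1G27580, for an F-box protein, was at 0.0575 and 0.0971 CPM in Col-0 and at 11.2 and 14.9 CPM in *atbmi1a,b* (7.40 ± 0.51). In each of these genes the lowest *atbmi1a,b* library was more than 50-fold above the highest Col-0 library.

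**Figure D4:**
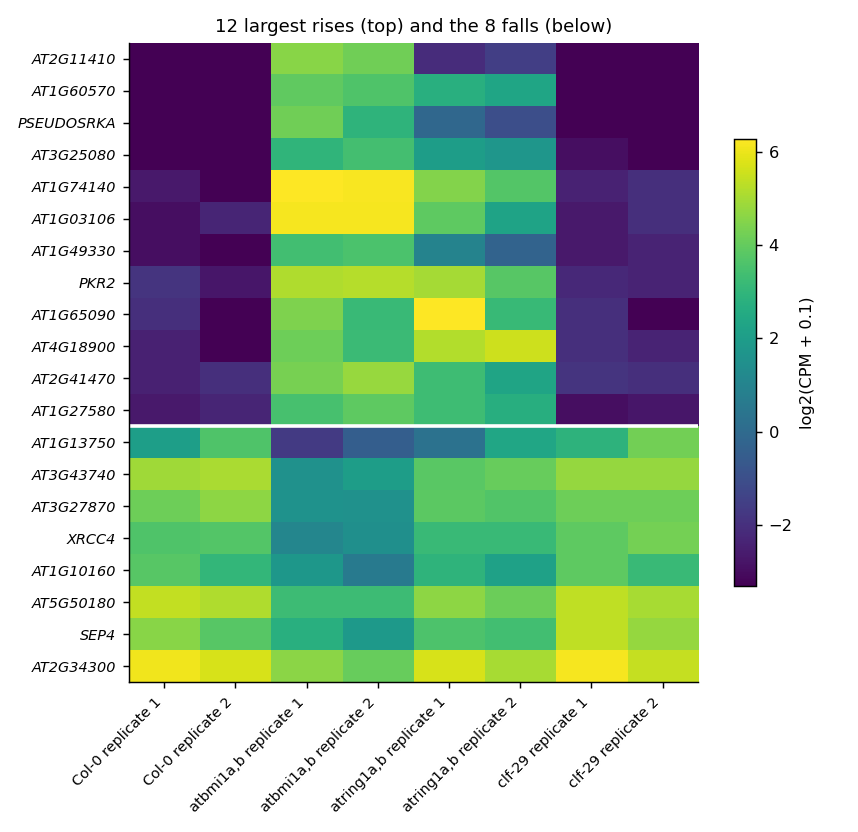
Level as log2(CPM + 0.1) in colour, for the 12 genes with the largest rise (above the white line) and the 8 genes called lower (below), in the 2 libraries each of Col-0, *atbmi1a,b*, *atring1a,b* and *clf-29*. The risen genes are dark in Col-0 and in *clf-29*.

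By the difference in mean CPM, 5 genes led. AT1G04660, for a glycine-rich protein, was at 3.08 and 0.922 CPM in Col-0 and at 109 and 90.1 CPM in *atbmi1a,b* (5.79 ± 0.50, edgeR adjusted p = 0.0202). *AGO9* (chr5:7192239-7198381), an Argonaute gene known from the ovule and the germ line, was at 1.496 and 0.922 CPM in Col-0 and at 85.6 and 84.3 CPM in *atbmi1a,b* (6.15 ± 0.37, edgeR adjusted p = 0.0138). AT1G02770, an uncharacterized gene, was at 0.403 and 0.582 CPM in Col-0 and at 46.7 and 48.9 CPM in *atbmi1a,b*. AT1G74140 and AT1G03106, above, were the other genes. *AGO5*, a further Argonaute gene of reproductive tissue, was at 0.748 and 0.873 CPM in Col-0 and at 26.4 and 25.7 CPM in *atbmi1a,b* (5.02 ± 0.30, edgeR adjusted p = 0.0138). *AGO5* and *AGO9* were 2 of 6 tested genes annotated as Argonaute family proteins, and 4 of 70 tested genes annotated with a C1 domain were also called higher. *AGO5* and both families were picked after their values were seen.

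Among the genes called higher with a mean of at least 5 CPM in Col-0, which numbered 8, the rises were smaller. *SUT4*, a sucrose transporter gene, was at 9.46 and 8.93 CPM in Col-0 and at 35.01 and 30.0 CPM in *atbmi1a,b* (1.82 ± 0.20, edgeR adjusted p = 0.0393). AT2G45290, for a transketolase, was at 13.1 and 13.9 CPM in Col-0 and at 58.5 and 54.5 CPM in *atbmi1a,b* (2.06 ± 0.20, edgeR adjusted p = 0.0234). *GSTU26*, for a glutathione transferase, was at 8.17 and 4.90 CPM in Col-0 and at 37.6 and 34.7 CPM in *atbmi1a,b*. *ELF5A-1*, for a translation factor, had the smallest rise of the 67, from 6.19 and 7.33 CPM to 21.7 and 21.2 CPM (1.67 ± 0.20, edgeR adjusted p = 0.0431). In these genes replicates lay within 2-fold of each other, and the genotypes were more than 2-fold apart. *SUT4*, AT2G45290, *GSTU26* and *ELF5A-1* were also named after their values were seen.

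The genes called higher lay on all 5 chromosomes, in shares near the 0.316% of all tested genes. They were 19 of 5593 tested on chromosome 1 (0.34%), 8 of 3247 on chromosome 2 (0.246%) and 13 of 4191 on chromosome 3 (0.31%). Chromosome 4 held 13 of 3246 (0.4%) and chromosome 5 held 14 of 4924 (0.284%). Some were neighbours with no tested gene between them. *SESA2*, *SESA3* and *SESA4* lie side by side at chr4:13609341-13614283. A run of 4 pseudogenes, AT3G21010, AT3G21020, AT3G21030 and AT3G21040, covers chr3:7366210-7374364. AT3G21040 was at 0.834 and 0.437 CPM in Col-0 and at 12.4 and 10.5 CPM in *atbmi1a,b*, and AT3G21010 was at 2.99 and 2.86 CPM in Col-0 and at 11.8 and 13.4 CPM in *atbmi1a,b*. AT5G05420, for an FKBP-like isomerase, and AT5G05430, for an RNA-binding protein, lie 451 bases apart on chromosome 5. Reads of neighbouring or similar genes may have been assigned to either, and whether counting used strand is not given in the sources used here.

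All 8 genes that fell were expressed in Col-0. AT1G13750, for a purple acid phosphatase, was at 4.11 and 12.2 CPM in Col-0 and at 0.213 and 0.626 CPM in *atbmi1a,b* (log2 fold change -4.27 ± 0.35, edgeR adjusted p = 0.0163). AT3G43740, for a leucine-rich repeat protein, was at 29.9 and 33.3 CPM in Col-0 and at 2.80 and 4.01 CPM in *atbmi1a,b* (-3.23 ± 0.22, edgeR adjusted p = 0.0145). AT3G27870, for a P-type ATPase, was at 17.8 and 25.04 CPM in Col-0 and at 2.90 and 2.84 CPM in *atbmi1a,b* (-2.89 ± 0.25). In each, the nearest libraries of the genotypes were more than 5-fold apart. *XRCC4*, which acts with DNA ligase IV in the joining of broken DNA ends, was at 12.5 and 13.0 CPM in Col-0 and at 2.02 and 2.65 CPM in *atbmi1a,b* (-2.45 ± 0.23, edgeR adjusted p = 0.0234). The pseudogene AT1G10160 was at 13.8 and 8.10 CPM in Col-0 and at 3.28 and 1.47 CPM in *atbmi1a,b*. The protein kinase gene AT5G50180 was at 42.5 and 35.1 CPM in Col-0 and at 9.53 and 9.43 CPM in *atbmi1a,b*. AT2G34300, for a methyltransferase family protein, had the smallest fall, from 67.3 and 52.1 CPM to 24.5 and 16.4 CPM (-1.56 ± 0.18, edgeR adjusted p = 0.0407).

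H3K27me3 peaks of Col-0 seedlings were then laid over the called genes, to ask which of them carry the mark in the wild type. Peaks were called by the authors in each ChIP-seq library separately, and a gene was counted when a peak of the first Col-0 library overlapped it or its 1000 bp upstream by at least 1 bp. Of the 67 genes called higher, 43 had such a peak (64.2%, 95% Wilson interval 52.2% to 74.6%), against 4075 of 21201 tested nuclear genes (19.2%) and 2 of the 8 genes called lower. Col-0 level and peaks go together: of tested genes with a mean under 1 CPM in Col-0, 44.4% had a peak. Of the 49 called higher under 1 CPM, 34 had one (69.4%, 55.5% to 80.5%). Levels below 1 CPM were not matched between these groups, so the shares do not compare genes of equal level. Of those with 1 CPM or more, 15.6% of all tested genes had a peak and 9 of the 18 called higher. In the second Col-0 library the shares were 55.2% of genes called higher and 15.4% of all.

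In the first *atbmi1a,b* peak list, 22 of the 43 genes still had a peak and 21 had none. Over all tested genes with a Col-0 peak, 2667 of 4075 had a peak in *atbmi1a,b* and 1408 had none. In the second pair of ChIP-seq libraries, 23 of 37 genes still had a peak and 14 had none. Over all tested genes there, 2363 of 3259 had one and 896 had none. A peak in *atbmi1a,b* alone was found at 467 tested genes in the first pair and at 1448 in the second. In the second pair such gains thus outnumbered the losses. Peaks covered 10.8 Mb in Col-0 and 8.74 Mb in *atbmi1a,b* in the first pair, and 7.72 and 10.4 Mb in the second. *MAF4*, AT1G03106, *SUT4* and *GSTU26* were among the called genes with a peak in Col-0 and none in *atbmi1a,b* in both pairs. *SESA2*, *SESA3*, *SESA4*, *SESA5* and *OLEO1* were among those with a peak in all 4 libraries, and *OLEO2* and AT1G74140 had none in any. Some genes changed state between the pairs. *PKR2* had a peak in both genotypes in the first pair and in Col-0 alone in the second. AT1G60570 had one in Col-0 alone in the first pair and in both genotypes in the second. *AGO9* and *AGO5* had no peak in the second Col-0 library. A peak list holds regions above the caller's limit, so a gene without a peak may still carry the mark.

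**Figure D5:**
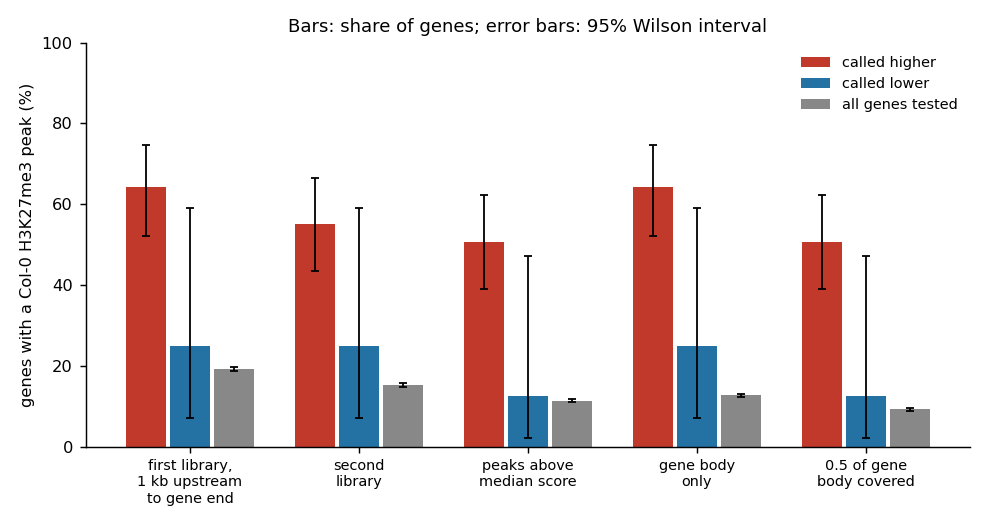
Percent of genes with a Col-0 H3K27me3 peak among the 67 genes called higher, the 8 called lower and all 21201 tested nuclear genes, by 5 ways of counting, with 95% Wilson intervals. The share of genes called higher is above that of all genes in each, from 50.7% to 64.2%.

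The same genes were set beside the libraries labelled *atring1a,b* and *clf-29* by direct contrasts in the same fit. Against *atring1a,b*, 0 of 21223 genes were called higher in *atbmi1a,b* (0%) and 2 were called lower (0.00942%), *AtRING1A* and *SESA2*. At an unadjusted p under 0.05 and more than 2-fold, 633 were higher and 907 lower, among them 16 and 12 of the 67. *AtRING1A*, a gene that *atring1a,b* is labelled as mutated in, was at 592 and 820 CPM in these libraries, above both Col-0 libraries and not below them. A count over the whole gene does not show whether that transcript is intact, so this label could not be checked in this way. *AtRING1B* was at 1.61 and 0.683 CPM in these libraries, below both Col-0 libraries. *SESA2* was at 309 and 25.1 CPM in *atring1a,b*, with a log2 difference of -4.52 ± 0.27 (edgeR adjusted p = 0.0332). *SESA4* was at 213 and 16.1 CPM in *atring1a,b*, and *OLEO1* at 175 and 15.1 CPM, with edgeR adjusted p = 0.11 and 0.104 for the difference. As in *atbmi1a,b*, the first *atring1a,b* library was the higher in these seed genes, and the mean of *atring1a,b* was 8.01-fold to 26.8-fold that of *atbmi1a,b* over the 8. Other genes had lower values there than in *atbmi1a,b*, without passing the test: AT1G74140 was at 22.5 and 12.9 CPM in *atring1a,b*, AT1G03106 at 14.7 and 4.64 CPM, and AT2G11410 at 0.13 and 0.244 CPM. *AGO9* was at 91.2 and 47.9 CPM in *atring1a,b*, *AGO5* at 84.3 and 52.7 CPM and *PKR2* at 31.6 and 13.7 CPM, each above both Col-0 libraries. The *atring1a,b* mean was above that of *atbmi1a,b* for *AGO5* and below it for *AGO9* and *PKR2*, with none of these differences called. Against *clf-29*, 109 genes were called higher in *atbmi1a,b* (0.514%), among them 61 of the 67, and 52 were called lower (0.245%). The count of 61 rests on the same *atbmi1a,b* libraries that defined the 67. *AGO9* had a mean of 0.996 CPM in *clf-29* and *PKR2* of 0.107 CPM.

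The calls near the threshold show how it fell. Among the last genes inside were *ACBP5*, for an acyl-CoA binding protein, *SEP4* and the noncoding AT5G34871, at adjusted p of 0.0461, 0.0485 and 0.0489 by edgeR. The first outside were AT5G66150, AT2G40960 and *PAB7*, each at 0.0511, with log2 fold changes of 3.71, -3.07 and 4.097.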

How the data were processed

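Cleaned RNA reads were aligned by the authors to TAIR10 (TOPHAT), and unnormalized gene counts were deposited; the submitters' processing notes name HTSeq, and its version and strand setting are not given in the sources used here. The authors deposited H3K27me3 peaks called with MACS, whose peak score was used as deposited. Lines that name no gene (2.66% to 3.43% of the counts) were not used. The authors' table of fold changes and p-values was not used. Of 33602 genes, 32835 (97.7%) matched the RefSeq annotation (TAIR10.1). In R 4.3.3, edgeR 4.0.16 fitted genotype and replicate number to 8 libraries (TMM, filterByExpr, robust quasi-likelihood, 3 residual degrees of freedom). The block was kept because replicate differences correlated by 0.28 to 0.772 over the 6 pairs of genotypes, and because the study compared libraries within replicate number. Deposited counts of the 4 libraries compared were between 21394358 and 36205758. On simulated data (20415 genes), 4% of 2-fold, 59% of 4-fold and 96% of 8-fold changes were recovered and 13 unchanged genes were called. Changes were simulated only in genes above a minimum Col-0 count, so these rates do not describe genes near 0 in Col-0. The simulated replicate difference was also the same in every genotype, as the block assumes, which the data only partly share. The rates may therefore be too favourable.

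Genes, the 18 lists (303 genes) and the comparison were chosen with earlier results of these data known. Named were the targeted genes, up to 5 called and 3 uncalled abundant members per list, all seed regulators, and the 12 largest changes (mean of at least 1 CPM) and 5 largest CPM differences per direction. Alternatives were no block, other sets of libraries, DESeq2 1.42.0, RLE, no filter and each library left out. Intervals cover counting error only. Python 3.11.15, pandas 2.3.3, scipy 1.17.1 and matplotlib 3.10.9 were used.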

Additional observations from a re-analysis of the deposited data

How the results depend on the processing

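The number of called genes depended strongly on the procedure, and their direction did not: the 75 genes kept their sign under every alternative run. Without the replicate block, the same 8 libraries gave 19 genes higher and 2 lower, all of them among the 67 and 8, and all 14 RNA libraries gave 107 and 15, of which 50 and 4 were shared. Those 14 add libraries labelled *tfl2-2*, *lhp1-6*, *swn* and *clf29swn21*. The *LHP1* mutants *tfl2-2* and *lhp1-6* have 1 library each. By the study's methods, the *clf-29swn-21* double mutant grew on culture medium and the other genotypes in soil. With the replicate block, the 4 libraries alone gave 192 and 24, of which 64 and 8 were shared, and the 3 genes lost were AT1G03890, *SESA5* and *CLO1*. DESeq2 gave 454 and 128, including all 67 and 8. RLE factors gave 66 and 9, and no filter on low counts gave 109 and 18. An unadjusted p under 0.05 and 2-fold, applied to the main edgeR fit, gave 917 higher and 403 lower. The study also used an unadjusted p under 0.05 and a fold limit, but with DESeq, so its procedure was not repeated. Leaving out any 1 library, with the lone library left assumed to vary like those of the other genotypes, gave 0 higher and 0 lower (from 0 to 0), with 736 to 829 higher and 211 to 628 lower at the unadjusted p, and adjusted p of the 75 genes between 0.0586 and 0.413. Beside the 8 genes for storage and oil body proteins, which were not called in either fit without the block, 19 and 50 of the other 59 genes called higher were called there.

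Direction turned only in genes that were not called. With 1 library left out, log2 fold changes ranged as follows: *L1L* -0.37 to 2.28, *ABI5* -1.94 to 0.78, *EEL* -0.0021 to 1.45, *WRI1* -0.35 to 0.69, *DGAT1* -0.44 to 1.51, *FAD3* -0.11 to 0.19, *RAB18* -1.25 to 1.401, *PKL* -0.17 to 0.027, *AtBMI1A* -0.072 to 1.02, *SWN* -0.092 to 0.38, *VEL1* -0.028 to 0.32, *SVP* -0.15 to 0.12, *KNAT1* -0.048 to 0.44, *ANT* -0.42 to 0.33, *PIN3* -0.10 to 0.69, *LHCB1.3* -0.17 to 0.019, *WRKY70* -0.35 to 0.48, *CHS* -2.06 to 1.61 and *LHY* -1.10 to 0.93. In other settings, *SVP* was at 0.015 and *WRKY70* at -0.039 without the block in all 14 libraries, *WRKY70* at -0.064 without the block in 8, and *LHY* at -0.0228 in the 4 libraries alone and at -0.011 without the filter.

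The share of genes called higher with a Col-0 peak was 50.7% with peaks above the median score, 50.7% with 0.5 of the gene body covered and 50% at a Col-0 level of 1 CPM or more. For all genes it was 15.4% in the second library, 11.4% above the median score, 12.7% in the gene body only, 9.26% with 0.5 covered, and 44.4% and 15.6% under and from 1 CPM in Col-0, a division chosen after seeing the data. With CATGCATG in place of CATGCA, 4.48% of genes called higher and 0.665% of all had the RY element. Low Col-0 counts limit how precisely the largest folds are known.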
